A study of Mus musculus with 16 samples.

Results

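Transcripts of 9 genes of blood coagulation and fibrinolysis were followed by RNA sequencing in endothelial cells (ECs), which form the inner lining of vessels, from the lungs of 4 groups of mice. The 9 genes were chosen by name, were each matched to 1 row of the 43346 genes in the table, and were *Vwf*, *F8*, *F3*, *Tfpi*, *Thbd*, *Procr*, *Plat*, *Plau* and *Plaur*. Mice of strain FVB received Bleomycin, a drug that injures the lung and leads to fibrosis, or PBS, the carrier, into the trachea, and the ECs of their lungs were sorted about a month later. The groups were Young Sham (2 months old, PBS, n = 5 libraries), Young Bleo (2 months old, Bleomycin, n = 4), Aged Sham (18 months old, PBS, n = 3) and Aged Bleo (18 months old, Bleomycin, n = 4). According to the study's methods females and males were used, every mouse carried a reporter that expresses GFP from the *Col1a1* collagen promoter, and the sorted cells were positive for CD31 and negative for CD45, EpCAM and GFP. Each library was taken as 1 mouse, as the study's figure legends describe them.

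An intact vessel keeps blood fluid. Clotting starts when tissue factor (*F3*) meets factor VII, a pair that activates factor X and so leads to thrombin, and factor VIII (*F8*), carried in plasma by von Willebrand factor (*Vwf*), speeds the reaction. ECs hold this back with tissue factor pathway inhibitor (*Tfpi*) and with thrombomodulin (*Thbd*) and the endothelial protein C receptor (*Procr*), which together let thrombin activate protein C. Fibrin is then dissolved by plasmin, which tissue-type (*Plat*) and urokinase-type (*Plau*) plasminogen activators release from plasminogen, urokinase doing so at the cell surface while bound to its receptor (*Plaur*).

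After bleomycin the young ECs carried more *Plat*, *Procr* and *Tfpi* transcript and less *Plaur*, the *Tfpi* call depending on the test used. In aged ECs *Plat* again rose and *Plaur* again fell after bleomycin, and both of these calls also depended on it. *Vwf* passed the test in Aged Bleo against Young Sham alone among the comparisons, and *Thbd*, *F8*, *F3* and *Plau* passed it in none of them. A gene was called changed in the DESeq2 Wald test where the p adjusted by the Benjamini-Hochberg method was no higher than 0.05 and the log2 fold change was 0.5 or more in either direction. All adjusted p-values below come from that test, over all genes tested, unless another tool is named.

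The promoters of members that were called after bleomycin in young mice are shown for reference where the table of RefSeq (GRCm38.p6) promoters used here has an entry, from 250 bases before to 50 bases after the gene's start. Entries were found for 5 of the 9 members (*F8*, *F3*, *Tfpi*, *Procr* and *Plaur*), with a pair of start sites for *Tfpi*, of which the upstream one is printed. Each is read 5′ to 3′ on the gene's strand, and capitals mark a match on either strand to AGGAAG (an ETS-family site, the family of the ERG factor that the study followed), CACCC (a Krüppel-like factor site) or TGANTCA (an AP-1 site, N being any base).
*Procr*, chr2:155750967-155751266, plus strand: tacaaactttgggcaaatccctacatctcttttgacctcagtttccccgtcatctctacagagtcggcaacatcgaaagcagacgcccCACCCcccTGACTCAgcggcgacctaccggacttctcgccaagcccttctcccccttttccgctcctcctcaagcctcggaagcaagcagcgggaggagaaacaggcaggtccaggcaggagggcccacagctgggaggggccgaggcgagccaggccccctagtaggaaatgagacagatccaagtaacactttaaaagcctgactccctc
*Tfpi*, chr2:84476710-84477009, minus strand: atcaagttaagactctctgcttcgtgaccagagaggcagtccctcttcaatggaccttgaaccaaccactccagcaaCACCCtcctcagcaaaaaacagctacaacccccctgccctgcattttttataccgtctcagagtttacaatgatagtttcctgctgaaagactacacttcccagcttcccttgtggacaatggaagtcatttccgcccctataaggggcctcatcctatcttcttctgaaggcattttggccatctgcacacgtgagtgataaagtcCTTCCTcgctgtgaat
*Plaur*, chr7:24462233-24462532, plus strand: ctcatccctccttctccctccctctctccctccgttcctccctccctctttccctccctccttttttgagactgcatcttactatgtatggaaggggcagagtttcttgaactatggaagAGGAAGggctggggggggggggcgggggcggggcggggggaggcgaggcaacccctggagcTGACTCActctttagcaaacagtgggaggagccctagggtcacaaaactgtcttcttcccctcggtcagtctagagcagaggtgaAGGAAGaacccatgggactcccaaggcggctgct
In *Procr* a CACCC match began 162 bases before the start and a TGANTCA match 154 bases before it. At its upstream start site *Tfpi* had a CACCC match 173 bases before the start and an AGGAAG match on the opposite strand at base 35 after it. At the other start site, not printed, it had AGGAAG matches on the opposite strand 92 and 41 bases before the start and a CACCC match on that strand 202 bases before it. *Plaur*, the member that fell, had AGGAAG matches 130 bases before the start and at base 17 after it, and a TGANTCA match 69 bases before it. Of all 32851 promoters in the same table, 35.4% held AGGAAG, 57.5% held CACCC and 7.81% held TGANTCA. These matches describe the letters of the windows only.

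The 16 libraries held 20.9 to 71.0 mega-counts on genes each, and every member was counted in every library, from 38 counts of *Plau* to 145219 counts of *Thbd* in the lowest and highest single values. Pan-endothelial markers (*Cdh5*, *Cldn5*, *Erg*, *Kdr*, *Pecam1*, *Tie1*) summed to 897 to 2066 FPKM (fragment counts divided by gene length and by the library's fragment total) over all libraries, and none of them was at 0 in any group. Their sums were 1907 to 2066 in Young Sham against 958 to 1475 in Young Bleo, and 1589 to 1766 in Aged Sham against 897 to 1527 in Aged Bleo. Gene by gene, 1 of the 6 was called higher and 2 lower in Young Bleo against Young Sham (all genes: 7.57% and 6.35%), with a median log2 fold change of -0.285. In Aged Bleo against Aged Sham none was called higher and 1 lower (all genes: 3.39% and 2.44%), with a median of -0.059. Marker lists of other cells and of vessel types also differed between groups. Summed FPKM of 10 macrophage markers were 35.7 to 54.9 in Young Sham, 58.9 to 191 in Aged Sham, 160 to 436 in Young Bleo and 217 to 1518 in Aged Bleo, with none at 0 in any group. After bleomycin 4 of the 10 were called higher at each age (all genes: 7.57% in young and 3.39% in aged mice), with 1 lower in young mice (6.35%). Aerocyte markers (*Car4*, *Ednrb*, *Apln*, *Fibin*, *Tbx2*), which mark a specialised capillary EC, summed to 1410 to 1904 FPKM in Young Sham and 1082 to 1709 in Aged Sham, against 192 to 877 in Young Bleo and 179 to 1193 in Aged Bleo. All 5 were called lower after bleomycin in young mice (all genes: 6.35%) and none in aged mice (2.44%). Library 14 of Aged Sham stood apart with 3533 FPKM of platelet and megakaryocyte markers, against 68.0 to 985 in the 15 others. Aged Sham libraries 13 and 15, at 985 and 663 FPKM, were also above every library of Young Sham (288 to 535), Young Bleo (114 to 262) and Aged Bleo (68.0 to 508). With library 14 in the fit, 5 of the 8 platelet markers were called higher in Aged Sham against Young Sham (all genes: 2.24%) and 7 lower in Aged Bleo against Aged Sham (all genes: 2.44%). Arterial EC markers summed to 68.1 to 93.1 FPKM in Young Sham against 134 to 185 in Young Bleo, and to 48.5 to 80.0 in Aged Sham against 97.4 to 196 in Aged Bleo, without overlap at either age, and 3 of the 6 were called higher after bleomycin at each age (all genes: 7.57% in young and 3.39% in aged mice), with 1 lower in young mice (6.35%). General capillary markers summed to 487 to 694 FPKM in Young Sham, 661 to 859 in Young Bleo, 347 to 532 in Aged Sham and 564 to 736 in Aged Bleo, with 2 of 5 called higher after bleomycin at each age, beside those same shares of all genes, and 2 of 5 lower in Aged Sham against Young Sham (all genes: 1.11%). Venous markers summed to 18.1 to 40.8 FPKM in Young Sham, 30.5 to 48.8 in Young Bleo, 17.1 to 30.6 in Aged Sham and 30.8 to 42.9 in Aged Bleo, with 1 of 4 called higher after bleomycin in young mice (all genes: 7.57%) and none in aged mice (3.39%). The median sums of these 3 lists were higher after bleomycin at both ages, as *Plat*, *Procr* and *Tfpi* were in young mice, and their part in the members' results was not tested. Fibroblast markers were lowest in Aged Bleo, at 5.48 to 9.39 FPKM against 10.4 to 28.2 elsewhere, with 3 of 5 called lower against Young Sham (all genes: 3.14%). Neutrophil markers summed to 0.0807 to 0.773 FPKM in Young Sham against 1.82 to 9.53 in Aged Bleo, without overlap, and 1 of the 4 tested was called higher than in Young Sham in each of the other groups. Lymphatic EC markers overlapped between all groups, at 25.3 to 47.2 FPKM in Young Sham and 37.9 to 84.7 in Young Bleo, where 2 of 5 were called higher (all genes: 7.57%). Epithelial markers also overlapped between all groups, with 1 of 6 called lower in Young Bleo (all genes: 6.35%) and in Aged Bleo (3.14%) against Young Sham. Mesothelial markers summed to at most 1.53 FPKM in Young Sham, where *Wt1* was at 0, and to as much as 17.2 elsewhere, with 5 of 5 called higher than in Young Sham in Young Bleo (all genes: 7.57%) and 3 of 5 in each aged group (2.24% in Aged Sham and 6.58% in Aged Bleo). In these bulk samples, fewer cells of a type and less RNA per cell cannot be told apart.

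Compared per gene length, *Thbd* had the highest mean of the members in every group and *F8* the lowest. *Thbd* and *Plaur* overlapped in Aged Sham, with *Thbd* higher in 2 of 3 libraries, as did *Plau* and *F8* in Young Bleo, with *Plau* higher in 3 of 4. In Young Sham mean levels ran from 215 ± 53.1 FPKM for *Thbd* (SD, n = 5) through 101 ± 17.8 for *Plaur*, 18.1 ± 4.24 for *Vwf*, 14.0 ± 2.82 for *Plat*, 5.98 ± 0.260 for *Tfpi*, 5.95 ± 1.07 for *Procr*, 1.72 ± 1.06 for *F3* and 1.69 ± 0.275 for *Plau* to 0.165 ± 0.0547 for *F8*. The 3 neighbouring pairs in that order whose libraries overlapped were *Vwf* with *Plat*, *Tfpi* with *Procr* and *F3* with *Plau*. In both bleomycin groups *Plat* stood above *Vwf* in the order, at 40.4 ± 10.9 against 28.4 ± 10.1 FPKM in Young Bleo (SD, n = 4) and at 50.4 ± 15.9 against 31.8 ± 1.56 in Aged Bleo (SD, n = 4). The libraries of these genes overlapped in Young Bleo and were apart in Aged Bleo. *Procr* and *Tfpi* kept the places beneath them in all 4 groups. The level of *Thbd* was 44.4 to 828 times that of *F3* per library, so transcripts of the anticoagulant receptor outnumbered those of the clotting starter in all 16 libraries.

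**Figure D1:**
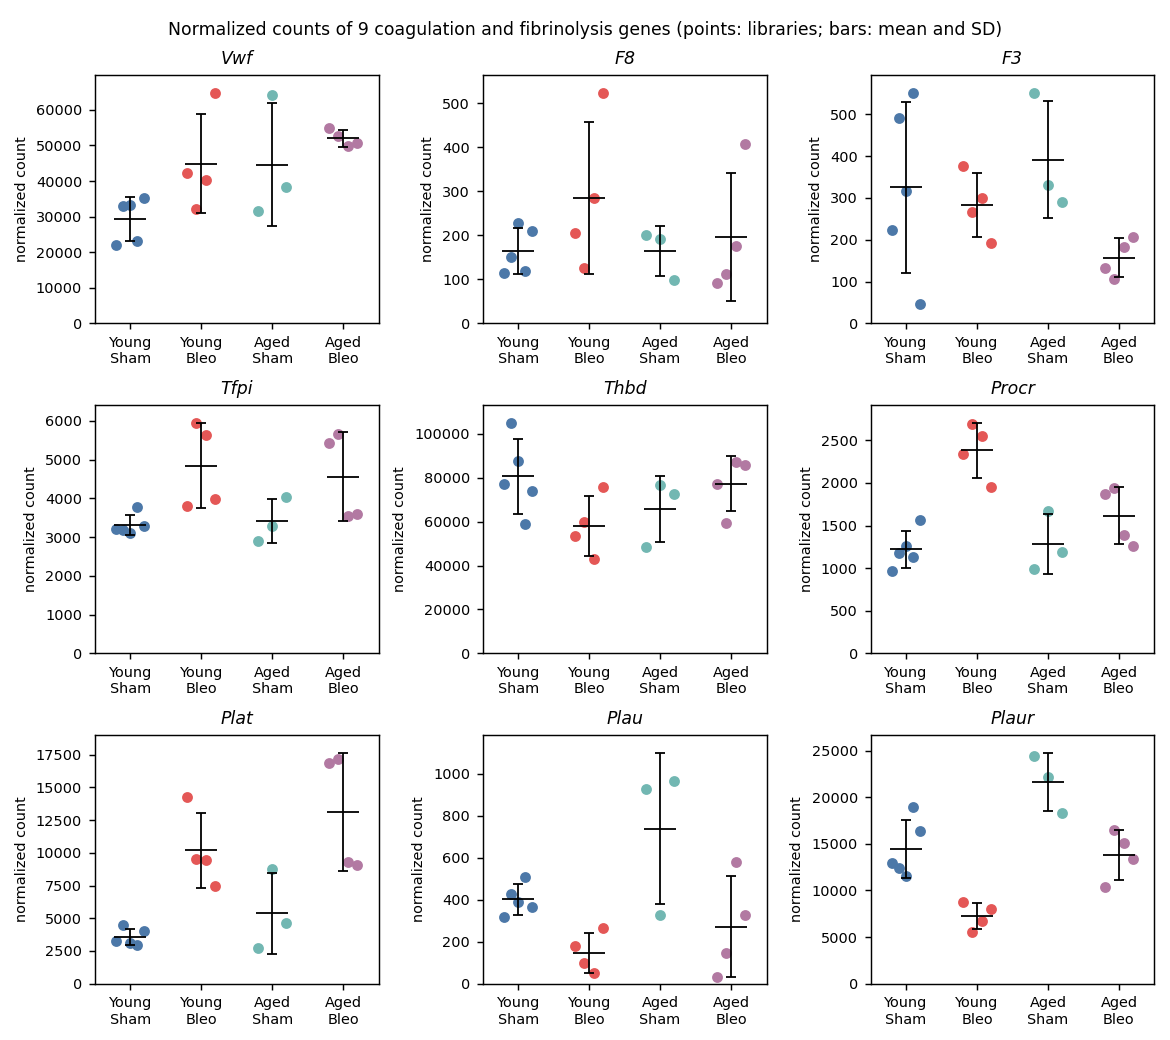
Normalized counts (raw counts divided by the library's size factor, vertical axes from 0) of the 9 genes in each library, by group, with the group mean as a horizontal line and the SD as a bar. *Plat* sits between 2958 and 4460 in Young Sham, between 2720 and 8739 in Aged Sham and between 7491 and 17161 in the bleomycin groups, while *Plaur* is lowest in Young Bleo.

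The first of the fibrinolysis genes was *Plat* (ENSMUSG00000031538, mm10 chr8:22757744-22782847, plus strand, up to 14 exons), which encodes tissue-type plasminogen activator, the enzyme that ECs secrete to dissolve clots. Its normalized counts in Young Sham were 3267, 4460, 3137, 2958 and 3996 in libraries 21 to 25, and in Young Bleo 14291, 9540, 9442 and 7491 in libraries 17 to 20. Every Young Bleo library was above every Young Sham library. The log2 fold change was 1.52 (SE 0.305, 2.86-fold, adjusted p = 3.50e-05), and it passed the threshold under all 8 other settings and with any single library left out.

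In aged mice *Plat* counts were 2720, 8739 and 4641 in Aged Sham libraries 13, 14 and 15, and 16833, 17161, 9337 and 9060 in Aged Bleo libraries 1, 2, 3 and 5. The groups did not overlap, yet library 14 came within 321 normalized counts of the lowest Aged Bleo library. The log2 fold change in Aged Bleo against Aged Sham was 1.29 (SE 0.348, 2.44-fold, adjusted p = 8.20e-03). Without library 14, the one rich in platelet transcripts, it was 1.83 (adjusted p = 1.42e-05). The call held under 5 of the 8 other settings. It was lost in edgeR's quasi-likelihood test (adjusted p = 0.0733), and without Aged Bleo library 1 (adjusted p = 0.0650), Aged Sham library 13 (0.0648) or Aged Sham library 15 (0.0639) in DESeq2.

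Against Young Sham, the Aged Bleo value of *Plat* was the largest change of any member, at 1.88 on the log2 scale (SE 0.305, 3.67-fold, adjusted p = 1.50e-07). This comparison uses the same Young Sham libraries as the young response. Aged Bleo and Young Bleo were not separated for *Plat* (log2 fold change 0.36, 95% confidence interval -0.27 to 0.99, adjusted p = 0.801), and the response of aged mice minus that of young mice was -0.23 (interval -1.14 to 0.68, adjusted p = 0.930). Aged Sham against Young Sham gave 0.59 (adjusted p = 0.408). With single libraries left out it was 0.05 to 0.91, the lowest without library 14.

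Within Aged Bleo the libraries fell apart for *Plat* along with the cell type markers. Libraries 1 and 2, with *Plat* at 16833 and 17161, held 179 and 318 FPKM of aerocyte markers and 1518 and 844 of macrophage markers. Libraries 3 and 5, with *Plat* at 9337 and 9060, held 1193 and 924 FPKM of aerocyte markers and 370 and 217 of macrophage markers. In Young Bleo the library with the most *Plat* (17) had the fewest aerocyte transcripts, at 192 FPKM, and the library with the least *Plat* (20) the most, at 877. Macrophage markers in Young Bleo libraries 17, 18, 19 and 20 were 394, 436, 286 and 160 FPKM, so library 18 and not 17 was the highest in them. The part of these shifts in the *Plat* result was not tested.

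*Plau* (ENSMUSG00000021822, chr14:20836662-20843388, plus strand, up to 11 exons), which encodes urokinase, was a scarce transcript with 38 to 1055 raw counts per library. Normalized counts were 318, 427, 388, 510 and 363 in Young Sham and 180, 97.7, 48.5 and 264 in Young Bleo libraries 17 to 20. The young groups did not overlap, but the log2 difference of -1.44 (SE 0.588) did not pass the test (adjusted p = 0.0773). It did when only the young libraries compared were fitted (adjusted p = 3.60e-03), and without Aged Bleo library 1 (0.0168), Aged Bleo library 3 (0.0486) or Young Bleo library 20 (0.0176). In aged mice the counts were 925, 325 and 964 in Aged Sham and 29.8, 145, 581 and 327 in Aged Bleo, which overlapped, and the log2 fold change was -1.45 (SE 0.667, adjusted p = 0.202). Without Aged Bleo library 3 this was -2.14 (adjusted p = 0.0194). The lowest *Plau* counts in both bleomycin groups, 29.8 and 145 in Aged Bleo 1 and 2 and 48.5 and 97.7 in Young Bleo 19 and 18, belonged to libraries with 179 to 375 FPKM of aerocyte markers, but Young Bleo 17, with 192 FPKM, had 180 counts of *Plau*.

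*Plaur* (ENSMUSG00000046223, chr7:24462500-24475873, plus strand, up to 7 exons), the urokinase receptor, was second to *Thbd* in mean FPKM in all groups. Young Sham libraries 21 to 25 had normalized counts of 12896, 12391, 11523, 18909 and 16392, and Young Bleo libraries 17 to 20 had 8712, 5577, 6673 and 7985. All Young Bleo values were lower than all Young Sham values. *Plaur* fell by 0.99 on the log2 scale (SE 0.192, 1.99-fold lower, adjusted p = 1.34e-05), a call that held under all 8 other settings and with any single library left out.

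Aged Sham libraries 13, 14 and 15 had 24378, 22208 and 18299 normalized counts of *Plaur*, and Aged Bleo libraries 1, 2, 3 and 5 had 10334, 16454, 15092 and 13334. The aged groups did not overlap, and *Plaur* fell after bleomycin by 0.65 on the log2 scale (SE 0.218, 1.57-fold lower, adjusted p = 0.0487). That call was at the threshold and remained under 1 of the 8 other settings, with an adjusted p of 0.130 in edgeR. It was lost without any one of Aged Bleo libraries 1 and 5, Aged Sham libraries 13, 14 and 15, Young Bleo library 19 and Young Sham libraries 21, 22 and 25, the adjusted p reaching 0.204. Aged Sham against Young Sham gave 0.58 (SE 0.209, adjusted p = 0.10). Without Young Sham library 24, the highest of its group, that became 0.70 (adjusted p = 0.0230).

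Aged Bleo and Young Bleo differed in *Plaur*, by 0.93 on the log2 scale (SE 0.202, 1.91-fold higher in Aged Bleo, adjusted p = 1.97e-03), and their libraries did not overlap. This was the only member called between the bleomycin groups. It was called under 5 of the 8 other settings and with any single library left out, and with edgeR the same difference of 0.93 had an adjusted p of 0.121. The responses to bleomycin in aged and young mice were not separated for *Plaur* (difference 0.35, interval -0.22 to 0.92, adjusted p = 0.801), and Aged Bleo was close to Young Sham, at -0.06 (interval -0.44 to 0.31, adjusted p = 0.902).

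Among the anticoagulant genes, *Procr* (ENSMUSG00000027611, chr2:155751117-155755471, plus strand, up to 4 exons) encodes the endothelial protein C receptor. It had normalized counts of 969, 1181, 1263, 1137 and 1560 in Young Sham and 2341, 2687, 2548 and 1954 in Young Bleo. All Young Bleo libraries were above all Young Sham libraries. *Procr* rose by 0.96 on the log2 scale (SE 0.196, 1.95-fold, adjusted p = 4.36e-05), and all 8 other settings and every left-out library kept the call.

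In aged mice *Procr* counts were 985, 1668 and 1190 in Aged Sham and 1868, 1938, 1394 and 1266 in Aged Bleo. These overlapped, and the log2 fold change was 0.33 (SE 0.224, adjusted p = 0.454). With single libraries left out it was 0.18 to 0.57, the highest without Aged Sham library 14 (adjusted p = 0.120). All 4 Aged Bleo libraries were below all 4 Young Bleo libraries, but the log2 fold change of -0.56 (SE 0.206, unadjusted p = 6.62e-03) had an adjusted p of 0.193. The aged response was 0.63 lower than the young one on the log2 scale (difference -0.63, interval -1.21 to -0.05, adjusted p = 0.552), so the difference did not pass the test. With single libraries left out the difference was -0.79 to -0.39, the latter without Aged Sham library 14.

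*Tfpi* (ENSMUSG00000027082, chr2:84432855-84476775, minus strand, up to 10 exons), the inhibitor of tissue factor and factor VIIa, had 3213, 3173, 3110, 3766 and 3281 normalized counts in Young Sham and 3809, 5932, 5638 and 3981 in Young Bleo. The groups stayed apart by 43.1 normalized counts, and Young Bleo libraries 18 and 19 carried most of the rise. Its log2 fold change was 0.55 (SE 0.189, 1.46-fold, adjusted p = 0.0282), near both thresholds. The call held under 5 of the 8 other settings, with an adjusted p of 0.0553 in edgeR, and in DESeq2 it was lost without Young Bleo library 18 (log2 fold change 0.44, adjusted p = 0.145) or 19 (0.47, adjusted p = 0.123), or without Young Sham library 21, 22, 23 or 25 (0.53 to 0.54, adjusted p from 0.0579 to 0.0650). Aged Bleo counts of 5426, 5666, 3554 and 3608 overlapped the Aged Sham counts of 2905, 3290 and 4026, and the log2 fold change was 0.42 (SE 0.215, adjusted p = 0.264). Against Young Sham, Aged Bleo gave 0.46 (adjusted p = 0.0959), and 0.57 (adjusted p = 0.0352) without Aged Bleo library 3 or 0.56 (adjusted p = 0.0443) without library 5. As with *Plat*, the pair of Aged Bleo libraries highest in *Tfpi*, 1 and 2, was the pair lowest in aerocyte and highest in macrophage markers. Unlike *Plat*, *Tfpi* was lowest in Young Bleo in library 17, which had the fewest aerocyte transcripts of its group, at 192 FPKM, and 394 FPKM of macrophage markers. The part of these shifts in the *Tfpi* values was not tested.

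*Thbd* (ENSMUSG00000074743, chr2:148404466-148408188, minus strand, a single exon) encodes thrombomodulin. It had 77015, 104730, 87732, 59057 and 73910 normalized counts in Young Sham, 53372, 59677, 42904 and 75839 in Young Bleo, 48579, 76413 and 72441 in Aged Sham and 77087, 59384, 87121 and 85503 in Aged Bleo. The libraries of all 4 groups overlapped. Its log2 fold change in Young Bleo against Young Sham was -0.47 (SE 0.208, adjusted p = 0.105). Without Young Bleo library 20 it was -0.63 (adjusted p = 0.0192) and without Young Sham library 24 it was -0.57 (adjusted p = 0.0463). In aged mice it was 0.23 (SE 0.236, adjusted p = 0.674), and 0.053 to 0.35 with single libraries left out. The difference of the responses, 0.71 (SE 0.315, interval 0.09 to 1.32), had an unadjusted p of 0.0249 and an adjusted p of 0.491. Per length, the ratio of *Thbd* to *Procr*, the partners in protein C activation, was 25.8 to 48.4 in Young Sham, 9.19 to 21.2 in Young Bleo, 25.0 to 33.2 in Aged Sham and 16.7 to 36.9 in Aged Bleo. The ratio of FPKM was thus lower in every Young Bleo library than in every sham library, while Aged Bleo overlapped both.

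*Vwf* (ENSMUSG00000001930, chr6:125546774-125686679, plus strand, up to 52 exons) encodes the multimeric protein that tethers platelets to injured vessels and carries factor VIII. Its normalized counts were 21930, 32868, 33177, 23103 and 35343 in Young Sham, 42345, 32267, 40232 and 64761 in Young Bleo, 31432, 64149 and 38323 in Aged Sham and 54901, 52665, 49714 and 50579 in Aged Bleo. Aged Bleo was the tightest group, with an SD of 2317 on a mean of 51965, and its lowest library was above the highest Young Sham library. *Vwf* rose from Young Sham to Aged Bleo by 0.83 on the log2 scale (SE 0.235, 1.77-fold, adjusted p = 7.60e-03), under all 8 other settings and every left-out library too. Those groups differ in both age and treatment.

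With treatment or age alone changed, *Vwf* did not pass. Young Bleo against Young Sham gave 0.62 (SE 0.235, adjusted p = 0.0540), and an adjusted p of 0.0314 with only those groups fitted and 0.0493 with a filter of 10 counts in 3 libraries. The adjusted p was between 0.0196 and 0.0432 without Aged Sham library 13 or 14, Young Bleo library 18 or Young Sham library 25, and as high as 0.234 without Young Bleo library 20. Aged Sham against Young Sham gave 0.61 (SE 0.256, adjusted p = 0.203). With single libraries left out it was 0.25 to 0.81, the lowest without library 14, the platelet-rich library with 64149 counts. Aged Bleo against Aged Sham gave 0.22 (SE 0.268, adjusted p = 0.743). With single libraries left out it was 0.019 to 0.57, the highest without library 14 (adjusted p = 0.178). Megakaryocytes and platelets also carry *Vwf*, and the part of the platelet transcripts in these values was not tested. Nor was that of arterial and venous ECs, of whose markers 4 of 6 and 2 of 4 were called higher in Aged Bleo against Young Sham (all genes: 6.58%), and none and 2 in Aged Sham against Young Sham (2.24%).

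*F8* (ENSMUSG00000031196, chrX:75172715-75382615, minus strand, up to 26 exons), the cofactor of factor IX, had 90.9 to 524 normalized counts per library and overlapping ranges in all comparisons. The largest log2 fold change was 0.80 in Young Bleo against Young Sham (SE 0.468, adjusted p = 0.272, and 0.32 to 1.05 with single libraries left out), with Young Bleo library 20 at 524 and the other 3 at 126 to 284. Its gene body overlaps *Fundc2*, on the opposite strand, which averaged 1829 normalized counts against 202 for *F8*. The strand setting of the counting is not given in the sources used here, so reads of the pair may not be told apart.

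*F3* (ENSMUSG00000028128, chr3:121723537-121735052, plus strand, up to 6 exons), tissue factor, was also low, with 46 to 598 raw counts. Normalized counts were 224, 493, 318, 551 and 45.0 in Young Sham, 377, 266, 300 and 192 in Young Bleo, 552, 331 and 292 in Aged Sham and 132, 106, 182 and 208 in Aged Bleo. Aged Bleo lay below Aged Sham without overlap, and the log2 difference of -1.32 (SE 0.548, adjusted p = 0.142) did not pass the test. It passed when only those groups were fitted (adjusted p = 0.0235) and when Young Sham library 25, at 45.0 counts, was left out (adjusted p = 0.0116). Without that library Aged Bleo against Young Sham also passed, at -1.34 (adjusted p = 2.75e-03), where all libraries gave -1.05 (adjusted p = 0.154).

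**Figure D2:**
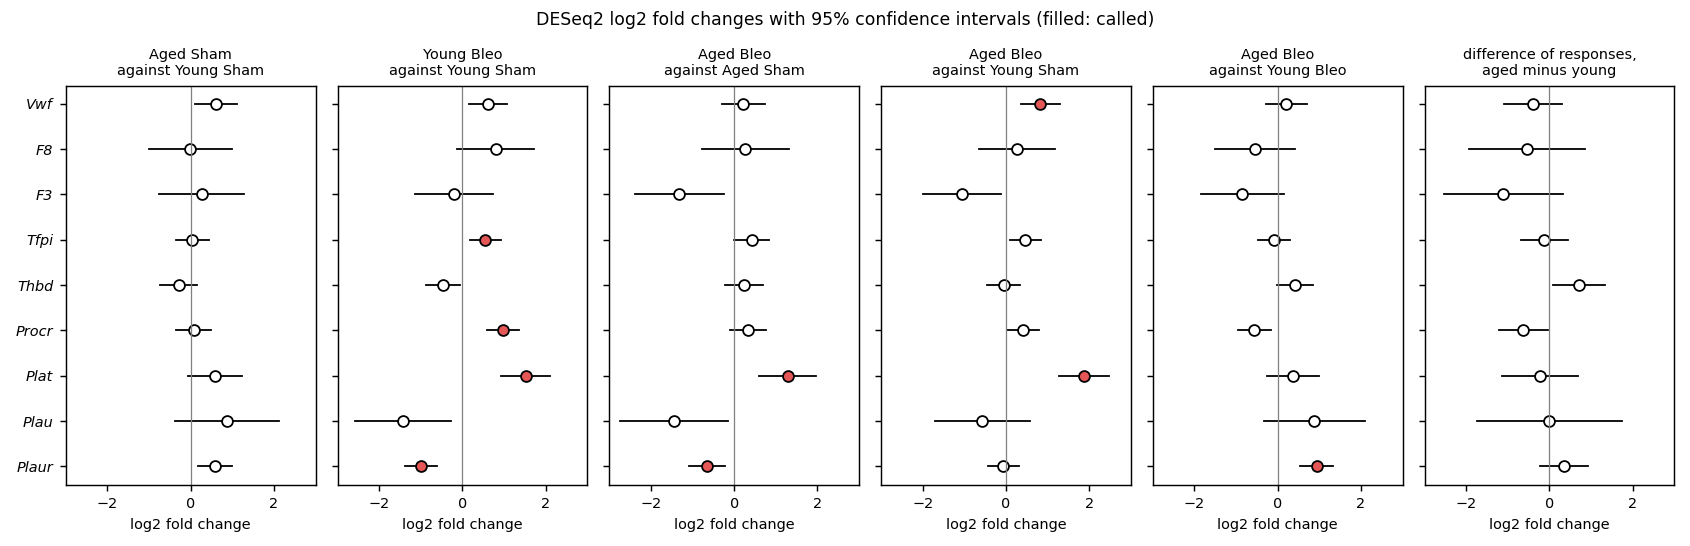
Log2 fold changes of the 9 genes (points, horizontal axes) with 95% confidence intervals (lines) from DESeq2 in 5 comparisons of groups and, on the right, for the aged minus the young response to bleomycin. Filled points passed the test, and there are 4 of them in Young Bleo against Young Sham and none in the comparison of sham groups or of the responses.

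Over the 9 genes, 3 were called higher and 1 lower in Young Bleo against Young Sham, where 7.57% of the 18515 genes tested were called higher and 6.35% lower. In Aged Bleo against Aged Sham 1 was called higher (all genes: 3.39%) and 1 lower (2.44%). Aged Bleo against Young Sham gave 2 higher (6.58%) and none lower (3.14%), and Aged Bleo against Young Bleo gave 1 higher (0.616%) and none lower (0.41%). In Aged Sham against Young Sham DESeq2 called none of the 9, where it called 2.24% of all genes higher and 1.11% lower. *Plaur* and *Vwf* had an unadjusted p under 0.05 there, and edgeR also called none. The difference of the responses gave no call (all genes: 0.134% higher and 0.247% lower of 19440 tested), with *Procr* and *Thbd* at an unadjusted p under 0.05 and none called by edgeR. The members' median log2 fold change was 0.55 in Young Bleo against Young Sham, beside 0.01 over all genes tested, and 0.23 beside 0.01 in Aged Bleo against Aged Sham. With 9 genes these counts describe the members and carry no test.

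**Figure D3:**
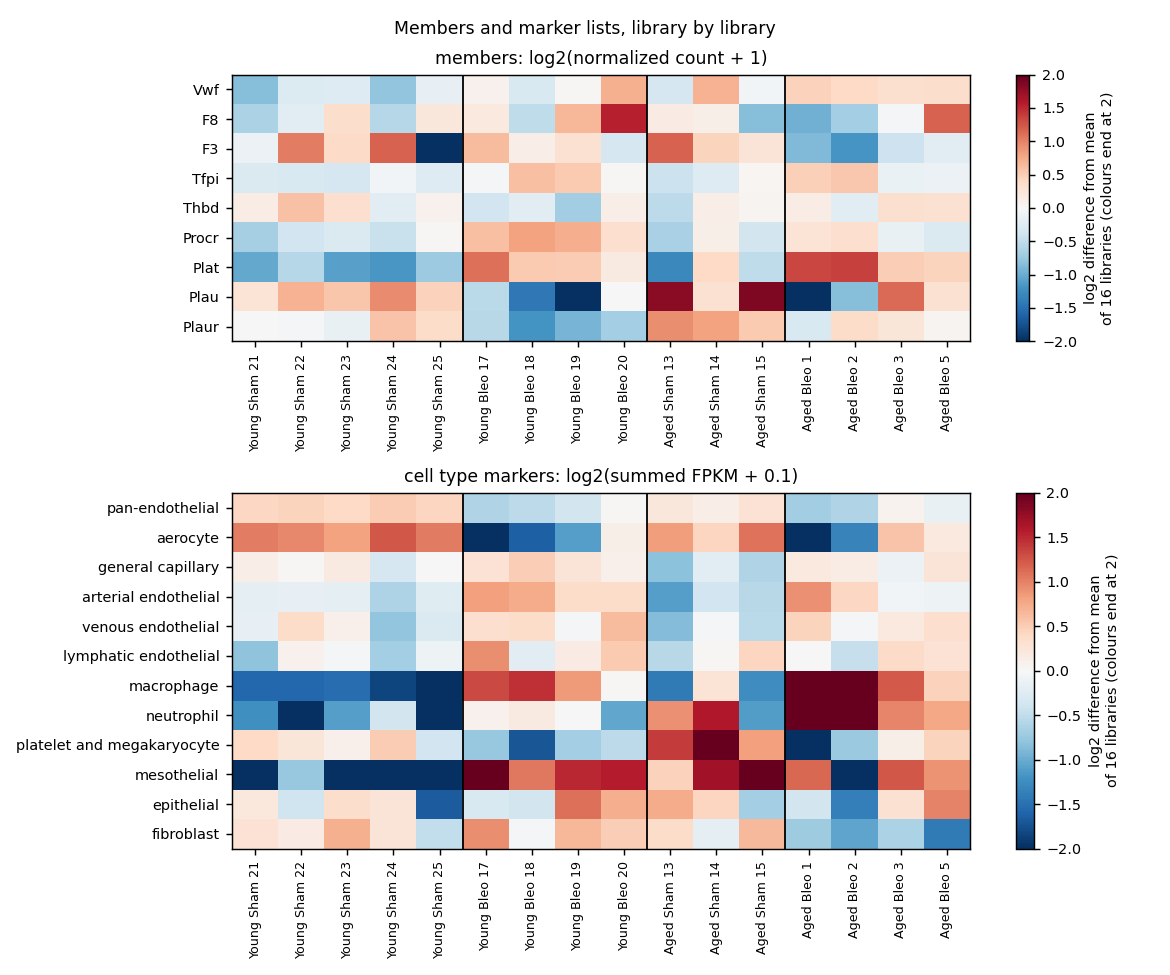
The log2 difference from the mean of the 16 libraries for each member (top, from normalized counts plus 1) and for the summed FPKM plus 0.1 of each list of cell type markers (bottom), with libraries in columns and vertical lines between groups. *Plat* is highest in Aged Bleo 1 and 2, where aerocyte markers are low and macrophage markers high, but Aged Bleo 3 and 5 and Aged Sham 14 also have 8739 to 9337 normalized counts of *Plat*, with 924 to 1193 FPKM of aerocyte markers, and platelet markers peak in Aged Sham 14.

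By the root mean square difference of standardised log2 profiles over the 16 libraries, among 13774 genes, the patterns most like that of *Plat* were those of *Stom* (0.293), *Mpeg1* (0.295) and *Hal* (0.297). *Mpeg1* is a gene of macrophages. For *Plaur* they were *Gm9917* (0.372), *Gpx3* (0.406) and *Foxo3* (0.420), and for *Procr* they were *Lpar6* (0.370), *Exoc3l2* (0.381) and *Lrrc3b* (0.386). *Vwf* was most like *Selp* (0.543), *Svil* (0.545) and *9430020K01Rik* (0.545). *Selp*, which encodes P-selectin, was itself in one of the lists of pathway genes below.

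Of 51 other genes of the pathway in 6 lists, 36 were tested in the comparisons of groups. In Young Bleo against Young Sham 7 were called higher and 1 lower (all genes: 7.57% and 6.35%), with a median log2 fold change of -0.15. The 3 in the list of plasminogen, its inhibitors and receptors were *Anxa2* (log2 fold change 1.36, adjusted p = 1.57e-04) and *S100a10* (0.86, adjusted p = 0.0137), whose products form a plasminogen receptor that also binds tissue plasminogen activator, and *Serpine2* (0.89, adjusted p = 3.55e-03), a serpin that inhibits thrombin and plasminogen activators. *S100a10* was no longer called without Young Bleo library 18 or 19, with an adjusted p of up to 0.0898.

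Weibel-Palade bodies are the granules from which ECs release von Willebrand factor. In the list of their genes, 2 of 8 were called higher in Young Bleo and none lower (all genes: 7.57% and 6.35%), namely *Cd63* (log2 fold change 1.45, adjusted p = 8.58e-04), which encodes a membrane protein of the granule, and *Selp* (1.09, adjusted p = 0.0268), the granule's adhesion molecule for leukocytes. *Selp* lost the call without Young Bleo library 18 or 20 or Young Sham library 21 or 24 (adjusted p up to 0.0996) and had an adjusted p of 0.0675 in edgeR. In Aged Bleo against Young Sham 4 of the 8 were higher and none lower (all genes: 6.58% and 3.14%), namely *Selp* (1.54, adjusted p = 1.04e-03), *Cd63* (1.39, adjusted p = 2.01e-03), *Rab27a* (0.88, adjusted p = 4.52e-04) and *Rab3d* (0.74, adjusted p = 4.96e-03). *Rab27a* and *Rab3d* encode small GTPases of granule traffic. None of the 8 was called in either age comparison or in Aged Bleo against Aged Sham. *Cd63* is also abundant in macrophages, whose markers rose with bleomycin in the ranges given above, and the part of this was not tested.

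Among clotting factors, *F7*, the partner of tissue factor, rose after bleomycin at both ages, by a log2 fold change of 3.04 in young (adjusted p = 2.78e-04) and 3.65 in aged mice (adjusted p = 4.73e-04). Its normalized counts were low, 2.34 to 57.4 in Young Sham and 16.4 to 67.9 in Aged Sham against 68.0 to 317 in Young Bleo and 103 to 938 in Aged Bleo. The highest, 861 and 938, were in Aged Bleo 1 and 2, the libraries richest in macrophage markers, and the part of those was not tested. In edgeR the adjusted p was 0.0155 in young and 0.0578 in aged mice. *Klkb1*, plasma prekallikrein, was at 0 in all Young Sham libraries and at 1.73 to 26.0 normalized counts in Young Bleo (adjusted p = 0.0293), a call lost without any one of the 4 Young Bleo libraries (adjusted p up to 0.0689). Aged Sham library 15 also held 24.7 normalized counts of *Klkb1*. *Hs3st1*, which makes the heparan sulphate that binds antithrombin, was the gene that fell in Young Bleo, by 0.81 on the log2 scale (adjusted p = 1.02e-03).

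**Figure D4:**
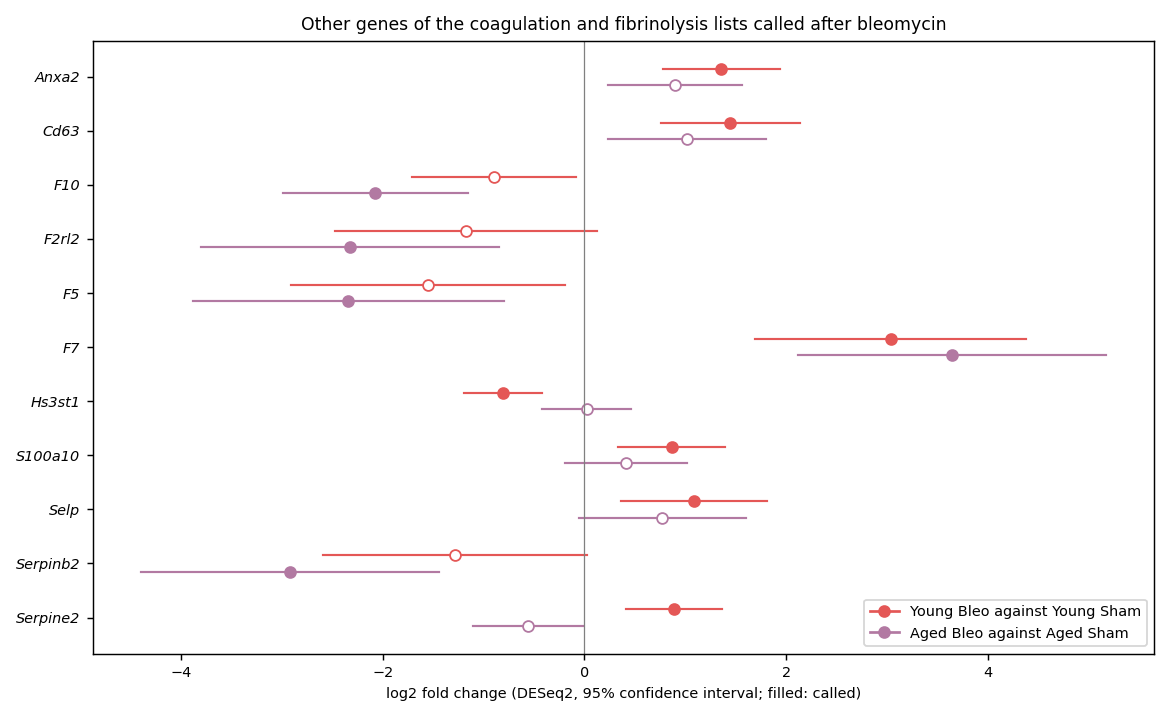
Log2 fold changes (horizontal axis, points, with 95% confidence intervals as lines) of other genes of the pathway that were called after bleomycin in young or in aged mice, except *Klkb1*, whose Young Sham counts were 0. *F7* is called at both ages, and *F10*, *F5*, *F2rl2* and *Serpinb2* are called in the aged comparison and not in the young one, the aged one being that which holds the platelet-rich library 14.

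In Aged Bleo against Aged Sham 1 of the 36 was higher (*F7*) and 4 were lower (all genes: 3.39% and 2.44%), namely *F10* (-2.07, adjusted p = 9.88e-04) and *F5* (-2.34, adjusted p = 0.0479), which encode factors X and V, *Serpinb2* (-2.92, adjusted p = 5.05e-03), a serpin that inhibits urokinase, and *F2rl2* (-2.33, adjusted p = 0.0382), a thrombin receptor. All 4 calls turned on library 14, in which *F10* was at 1967, *F5* at 7380, *Serpinb2* at 1010 and *F2rl2* at 8905 normalized counts against at most 544, 1947, 142 and 1594 in the other 15 libraries. For *F10*, Aged Sham libraries 13 and 15, at 544 and 453, were also above every library of the other groups, of which the highest was Aged Bleo 5 at 292. Without library 14 none was called, with log2 fold changes of -1.08, -1.24, -1.10 and -0.89 and adjusted p from 0.0742 to 0.461. The *F2rl2* call was also lost without Aged Bleo library 2, and that of *F5* was lost without any of 11 of the 16 libraries. *F10* was also the 1 gene of the 36 called in Aged Sham against Young Sham (all genes: 2.24% higher and 1.11% lower; *F10* 2.13, adjusted p = 3.33e-04), which became 1.14 (adjusted p = 0.0964) without that library. *F5* and *F2rl2* are genes of platelets and their precursors.

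Of the protease receptors, 1 was called between ages. *F2rl1*, which encodes the receptor PAR2, was lower in Aged Bleo than in Young Bleo, by a log2 fold change of -1.68 (adjusted p = 6.23e-03; 0.222 in edgeR), at 18.0 to 51.6 against 72.8 to 117 normalized counts without overlap. In Aged Bleo against Young Sham, which differ in both age and treatment, it was also lower (-1.22, adjusted p = 0.0178), as was *F2r*, the main thrombin receptor PAR1 (-1.05, adjusted p = 0.0262). Both of the latter calls were lost in edgeR (adjusted p of 0.0929 and 0.0883) and when single libraries were left out. For *F2rl1* these were Aged Bleo 1, Aged Bleo 5 and Young Sham 25 (adjusted p up to 0.103), and for *F2r* they were Aged Bleo 1 and 2 and Young Sham 22 and 23 (adjusted p up to 0.123). With *Anxa2* (1.32, adjusted p = 3.62e-04) and *F7* (4.25, adjusted p = 1.18e-07), 6 of the 36 pathway genes were higher and 2 lower in Aged Bleo against Young Sham (all genes: 6.58% and 3.14%), while *F2rl1* was the 1 call, a lower one, in Aged Bleo against Young Bleo (all genes lower: 0.41%). The response of *Serpine2* to bleomycin was lower in aged than in young mice (difference -1.45, SE 0.368, adjusted p = 0.0322), the single one of 38 pathway genes tested to be called in that contrast (all genes: 0.134% higher and 0.247% lower). Its adjusted p was 0.336 in edgeR and 0.157 without Aged Sham library 14, and the call was lost without any of 9 of the 16 libraries.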

How the data were processed

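RNA-seq libraries of sorted lung ECs were analysed from a single merged table. The authors aligned reads to mm10 with STAR (version 2.5.2b, per the submitters' processing notes) and counted them per gene with Subread featureCounts, and they deposited raw counts and FPKM, which they scaled by gene length and library total, without pooling replicates. The library kit is given differently in the labels and in the study's methods, and the strand setting and the handling of multiply mapped reads are not given in the sources used here. The test was DESeq2's (1.42.0, under R 4.3.3) on counts (Wald test, group as the only term, all 16 libraries in 1 fit, default filters), the tool of the study's methods. Raw counts were divided by DESeq2 size factors to give normalized counts. FPKM was used for levels between genes. Other settings were edgeR (4.0.16) quasi-likelihood with TMM, limma (3.58.1) voom, TMM size factors, a filter of 10 counts in 3 libraries, no independent or Cook's filter, limma-trend on log2(FPKM + 0.1) or log2(FPKM + 1) for genes with a mean FPKM of at least 0.1, the compared groups only, and each library left out. Scripts were tested on simulated data. The 9 members and all lists were chosen with earlier results of these data known. Named were all members, pathway genes called in a comparison, and for *Plat*, *Plaur*, *Procr* and *Vwf* the 3 genes most alike (mean normalized count of at least 50). One further gene is not reported here. P-values measure the spread between these libraries.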

Additional observations from a re-analysis of the deposited data

Results flagged for a closer look

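Of 27 groups of libraries examined (9 genes in the 3 groups of 4 or more libraries), 1 held a library far from its group. *Tfpi* in Young Sham library 24 had 3766 normalized counts, where the other 4 libraries of the group had 3110 to 3281, so that its gap to the nearest was 0.720 of the group's range on the log2 scale. Chance alone sets such a library apart in about 1 in 20 groups. Without that library the *Tfpi* change in Young Bleo was a log2 fold change of 0.60.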

How the results depend on the processing

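The count of called members changed with the setting in each comparison within an age and in Aged Bleo against Young Bleo. The 4 calls in Young Bleo against Young Sham became 3 with edgeR, limma voom and log2(FPKM + 1), 5 with the filter of 10 counts in 3 libraries and 6 with the compared groups only. The 2 calls in Aged Bleo against Aged Sham became 0 with edgeR and with limma voom, and 1 with TMM size factors, without the independent and Cook's filters, on log2(FPKM + 0.1), on log2(FPKM + 1) and with the compared groups only, where the 1 gene was *F3*. They were 0 to 3 with single libraries left out. The 1 call in Aged Bleo against Young Bleo became 0 with edgeR, limma voom and log2(FPKM + 0.1). Leaving out single libraries gave 0 to 1 calls in Aged Sham against Young Sham, 3 to 6 in Young Bleo against Young Sham and 2 to 3 in Aged Bleo against Young Sham. No member that was called changed direction in any setting. Values that changed sign were all uncalled. *F3* in Young Bleo against Young Sham was 0.20 with limma voom and 0.13 on log2(FPKM + 0.1), and -0.49 to 0.071 with libraries left out. In Aged Sham against Young Sham *Procr* was -0.083 and -0.069, and *Tfpi* -0.10 and -0.085, on log2(FPKM + 0.1) and log2(FPKM + 1). With libraries left out the log2 fold changes there were -0.064 to 0.54 for *F3*, -0.17 to 0.26 for *F8*, -0.16 to 0.23 for *Procr* and -0.10 to 0.15 for *Tfpi*. Those of *F8* were -0.37 to 0.50 in Aged Bleo against Aged Sham and -0.38 to 0.50 against Young Sham, where *Plaur* was -0.16 to 0.054 and *Thbd* -0.15 to 0.054. *Tfpi* in Aged Bleo against Young Bleo was -0.21 to 0.025. The difference of the responses was -0.55 to 0.31 for *Plat*, -0.70 to 0.43 for *Plau* and -0.25 to 0.011 for *Tfpi*, and 0.016 for *Plau* with TMM size factors. The cause of these changes was not tested. No paired analysis was possible because the library numbers do not repeat between groups. *F8*, *F3* and *Plau* had the fewest counts, 38 to 1055 per library.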
